A study of Mus musculus with 193 samples.

Results

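Immediate early genes are genes whose RNA appears within minutes of a stimulus without new protein synthesis. The 10 genes grouped here under that name are Fos, Fosb, Jun, Junb, Jund, Egr1, Ier2, Atf3, Dusp1 and Zfp36, described in single mouse germ cells. Whether each of the 10 genes is induced in that way was not measured. They are 10 of the 19557 genes in the deposited table. They were selected on measured values, since differences of Fos and Fosb between the ages in these same cells were known when the list was drawn up, so their values are given as a description, with no test. The cells came from mouse testes and were sorted as positive for Id4-eGFP, a green fluorescent reporter of Id4, which encodes an inhibitor of DNA binding found in spermatogonial stem cells. The 69 cells labelled Rhox10 knockout (KO) came from postnatal day (P) 3, the 53 wild-type (WT) P7 cells carried no knockout label, and the 71 WT P3 cells served as the reference for both. All of these groups carried the reporter. A deposited sample is a single cell, and the labels give neither the strain nor the animals.

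The titles sort the cells by letters, which the labels leave unexplained, giving 21, 12 and 36 cells in KO-labelled sets A, B and C, 12 and 41 cells in WT P7 sets A and B, and 16 and 55 cells in WT P3 sets A and B. Because no animal is named, each group counts as 1 sample and no p-value can be given. The sets show how far a difference repeats and nothing more. Reads on genes per cell ranged from 117385 to 1373776 in KO-labelled cells, from 226903 to 820131 in WT P7 cells and from 25424 to 1201355 in WT P3 cells. Every cell had Ddx4 or Dazl, which mark germ cells, above 1 RPM, a read count scaled to the cell's total reads. Rhox10, an X-linked homeobox gene, averaged 8.14, 7.65 and 1.5 RPM in KO-labelled sets A, B and C, against 4.48 and 2.68 RPM in WT P3 sets A and B. No label matches a set of one group with the set of the same letter in another. Rhox10 RNA was not lower than WT in 2 of the 3 sets labelled KO. Which part of Rhox10 was deleted is not given in the sources used here, so reads from a remaining part would not check the label, and the label is used below as a name.

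The products of Fos, Fosb, Jun, Junb and Jund pair with each other to form AP-1, a transcription factor that binds many growth and stress genes. Signals through the RAS, RAF, MEK and ERK kinases, through p38 and JNK kinases and through cyclic AMP reach these genes by way of factors already present in the cell, such as SRF with its ELK partners and CREB. Dusp1 and Zfp36 belong to the feedback arm: DUSP1 is a phosphatase that switches MAP kinases off, and ZFP36 is an RNA-binding protein that hastens the decay of AU-rich messenger RNAs, Fos RNA among them. In spermatogonia, GDNF and FGF signals from Sertoli cells act in part through these kinases. The same genes are also known to respond to enzymatic dissociation of tissue. All cells here share 1 dissociation protocol in the labels, with collagenase and then trypsin at one temperature before sorting. A shared protocol does not show that the groups were handled in 1 run. Each group counts as 1 sample, so handling cannot be told apart from age or label in the differences below, and its part in them was not tested.

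CREB and its relatives ATF1 and CREM bind the cyclic AMP response element, and the core TGACG or the wider form TGACNTCA lay upstream of several of the 10 genes. RefSeq promoter windows (GRCm38.p6, 250 bases before to 50 after the start) were given for 8 of them, not for Egr1 and Ier2. Of the 8, Fos, Fosb, Junb, Atf3 and Dusp1 held TGACG on either strand, a motif present in 20.8% of all 32851 windows. Jun and Dusp1 held TGACNTCA, present in 8.83% of windows. Within these windows the CArG box, the site of SRF, was found in Zfp36 alone of the 8 and in 1.63% of windows. Sites more than 250 bases before the start were not searched, so a gene without a match here may still have one further upstream. The bases -200 to -31 of the Jund window, chr8:70697539-70697708, lie upstream of the Jund start at chr8:70698949 in GENCODE vM21, so its lack of matches concerns the RefSeq start alone. The promoters below are those of Fos, Fosb and Dusp1, the 3 genes with the lowest P7 minus P3 difference of log2(RPM + 1), and of Jun, the AP-1 partner of Fos, from base -200 to base -31 before the start (to base -48 for Dusp1), written 5′ to 3′ on the gene's strand with TGACG and TGACNTCA in capitals. A match is a description of letters and says nothing of binding.
Fos, chr12:85473690-85473859, plus strand: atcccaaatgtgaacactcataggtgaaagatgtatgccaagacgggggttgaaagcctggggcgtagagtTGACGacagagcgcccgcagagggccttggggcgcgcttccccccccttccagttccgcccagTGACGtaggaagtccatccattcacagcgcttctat
Fosb, chr7:19310076-19310245, minus strand: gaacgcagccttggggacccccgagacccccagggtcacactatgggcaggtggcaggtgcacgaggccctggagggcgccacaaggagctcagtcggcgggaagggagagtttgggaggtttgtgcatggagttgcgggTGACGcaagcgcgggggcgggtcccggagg
Jun, chr4:95052253-95052422, minus strand: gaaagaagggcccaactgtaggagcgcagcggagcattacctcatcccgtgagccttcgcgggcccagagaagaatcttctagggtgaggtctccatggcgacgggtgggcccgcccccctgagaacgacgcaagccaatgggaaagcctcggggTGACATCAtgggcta
Dusp1, chr17:26508520-26508672, minus strand: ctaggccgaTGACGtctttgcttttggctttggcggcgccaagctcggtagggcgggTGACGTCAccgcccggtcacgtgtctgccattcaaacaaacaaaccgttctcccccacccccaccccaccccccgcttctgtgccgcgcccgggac
The Fos window shows TGACG at bases -129 and -66, and the Fosb window shows it at base -60. In Jun the capitals mark TGACNTCA from base -45. In Dusp1 they mark TGACG at base -191 and the palindrome at base -143, where the TGACNTCA match contains TGACG on both strands.

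Fos had the most negative difference of WT P7 from WT P3 cells among all 9659 genes measured in that comparison. Per cell, Fos ranged from 0 to 29.6 RPM in WT P7 cells with a median of 0.287 RPM, against 0.193 to 177 RPM in WT P3 cells with a median of 28.3 RPM. The set means were 2.36 and 5.11 RPM in WT P7 sets A and B and 31.3 and 36.7 RPM in WT P3 sets A and B. The sets of the ages did not overlap, while single cells did. The difference of log2(RPM + 1) levels was -3.33, and over the 4 pairs of a P7 with a P3 set it ran from -3.94 to -2.72. Mean RPM in WT P7 cells was 0.110 of that in WT P3 cells. Fos exceeded 1 RPM in 21 of 53 WT P7 cells (39.6%, exact 95% interval 26.5% to 54%) and in 66 of 71 WT P3 cells (93.0%, 84.3% to 97.7%). Thinning every cell to 100000 reads on genes, which left out 5 shallow WT P3 cells, gave 41.5% of WT P7 and 95.5% of WT P3 cells with at least 1 Fos read. These intervals cover counting error only.

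**Figure D1:**
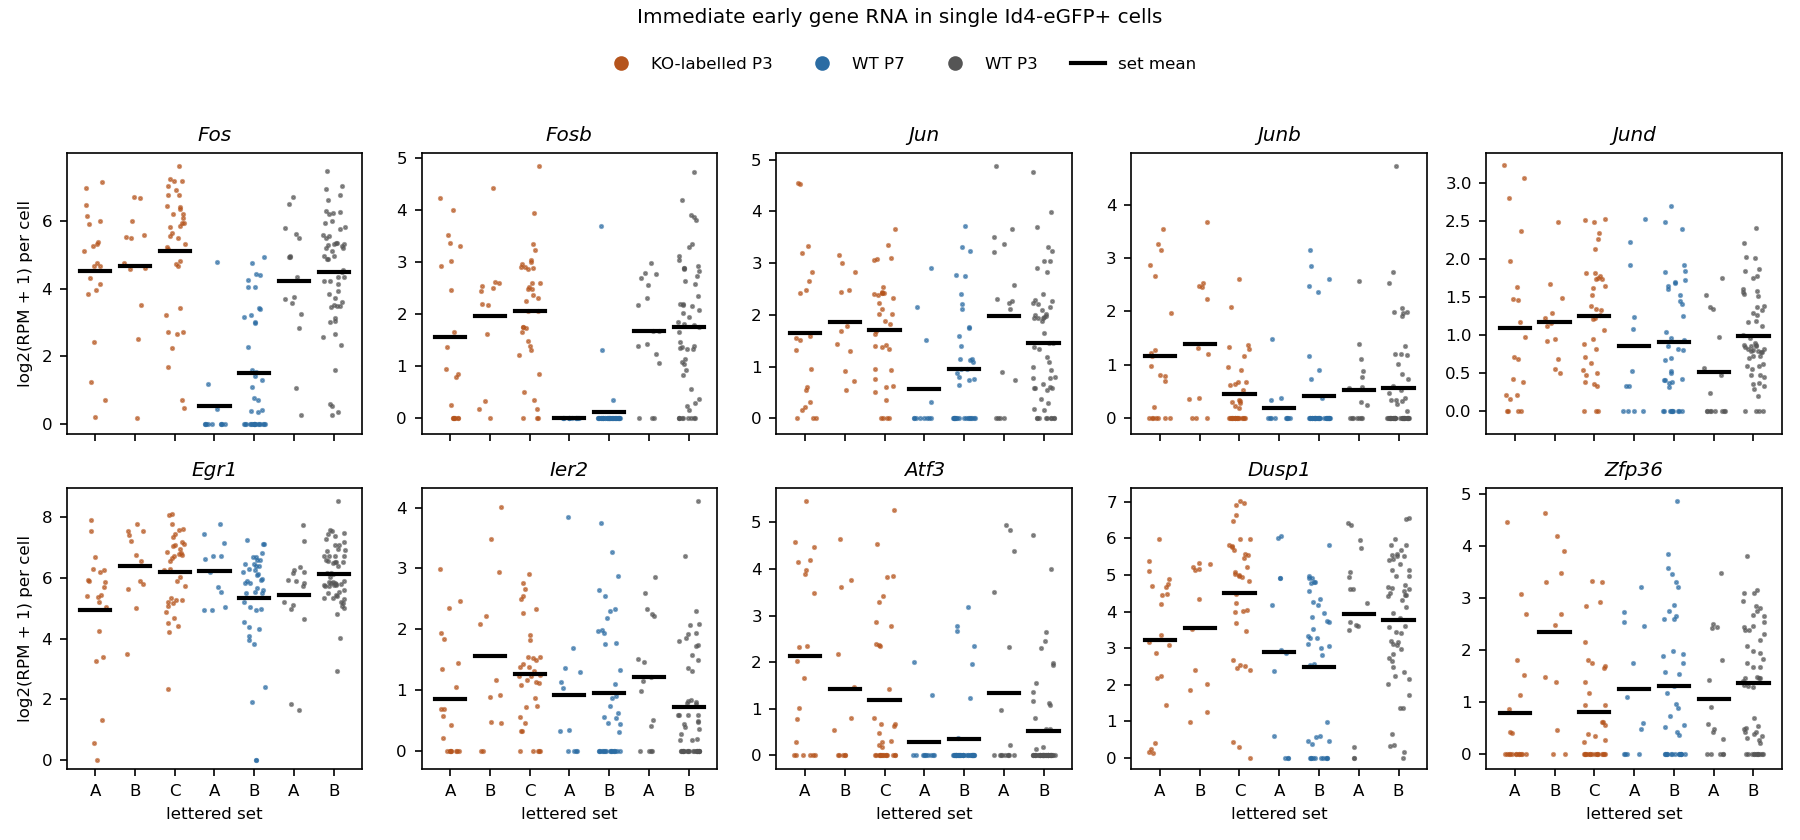
Level of each of the 10 genes as log2(RPM + 1) on the vertical axis, with 1 point per cell and a black bar for the mean of each lettered set, in KO-labelled P3 sets A to C, WT P7 sets A and B and WT P3 sets A and B. Vertical axes differ between genes. The WT P7 sets lie lowest for Fos and Fosb, with Fosb at 0 in all 12 cells of WT P7 set A, whereas Egr1 stays high in all 7 sets.

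Fosb, whose protein takes the place of FOS in AP-1, was nearly undetected at P7. It ranged from 0 to 11.8 RPM in WT P7 cells with a median of 0 and from 0 to 25.4 RPM in WT P3 cells with a median of 2.35 RPM. WT P7 set A had no read of Fosb in any of its 12 cells, and the limit of 3 counts in 12 cells allows up to 25% of cells with a read, which is not a limit on cells that express the gene. WT P7 set B averaged 0.332 RPM. WT P3 sets A and B averaged 2.92 and 3.98 RPM. The difference of levels was -1.65 (pairs -1.75 to -1.54), and the WT P3 level of 1.71 was the most it could fall. Mean RPM of Fosb in WT P7 cells was 0.0481 of that in WT P3 cells. Fosb exceeded 1 RPM in 2 of 53 WT P7 cells (3.77%), against 52 of 71 WT P3 cells (73.2%).

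Jun, Junb and Jund, the JUN partners in AP-1, had less room to fall than Fos, because a level of log2(RPM + 1) cannot lie below 0. Their WT P3 levels were 1.73, 0.54 and 0.75, against 4.36 for Fos. None of them could fall by as much as Fos did, so the sizes of these differences are not compared. Mean RPM in WT P7 cells was 0.32, 0.54 and 1.39 times that in WT P3 cells for Jun, Junb and Jund. Jun averaged 1.01 and 1.73 RPM in WT P7 sets A and B and 5.59 and 3.01 RPM in WT P3 sets A and B. Its difference was -0.96 (pairs -1.41 to -0.51), just short of the 1 log2 unit that a call required. Jun exceeded 1 RPM in 35.8% of WT P7 cells and in 59.2% of WT P3 cells. Junb was low at both ages, with set means of 0.196 and 0.758 RPM in WT P7 cells and 0.664 and 1.12 RPM in WT P3 cells, and its mean level of 0.42 lay under the minimum of 0.5 for a measured gene. Jund averaged 1.22 and 1.19 RPM in WT P7 sets and 0.586 and 1.15 RPM in WT P3 sets, a difference of 0.13 with pairs of both signs (-0.13 to 0.39). Junb overlaps Prdx2 on the opposite strand, and Jun, Jund and Zfp36 overlap the antisense genes Junos, Gm11175 and Gm44710. Dusp1 overlaps Ergic1 in a longer annotated form. The strand setting of the counting is not given in the sources used here, so reads of these neighbours cannot be told apart from theirs.

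Egr1 (chr18:34859823-34864984, GRCm38), a zinc finger transcription factor induced through SRF by the same kinases as Fos, was abundant at both ages. It ranged from 0 to 217 RPM in WT P7 cells with a median of 58.3 RPM and from 2.12 to 369 RPM in WT P3 cells with a median of 59.4 RPM. Set means were 92.0 and 58.5 RPM in WT P7 sets A and B and 63.8 and 85.6 RPM in WT P3 sets A and B, and the sets of 1 age differed by more than the means of the ages. The difference of levels was -0.00 with pairs from -0.82 to 0.81. Egr1 exceeded 1 RPM in 51 of 53 WT P7 cells and in 71 of 71 WT P3 cells. In 30 of 53 WT P7 cells (56.6%) Egr1 exceeded 1 RPM while Fos did not, against 5 of 71 WT P3 cells (7.04%).

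Atf3, a stress-induced repressor of the ATF and CREB family, averaged 0.373 and 0.677 RPM in WT P7 sets A and B and 5.79 and 1.26 RPM in WT P3 sets A and B. Its difference was -0.61 and below 0 in all pairs (-1.05 to -0.17). Ier2, which encodes a small nuclear protein induced by growth factors, averaged 1.78 and 1.71 RPM in WT P7 sets and 1.92 and 1.19 RPM in WT P3 sets, with a difference of -0.03 (pairs -0.30 to 0.23). Of the feedback genes, Dusp1 ranged from 0 to 65.5 RPM in WT P7 cells with a median of 7.09 RPM and from 0 to 93.0 RPM in WT P3 cells with a median of 18 RPM. Its set means were 18.5 and 10.6 RPM in WT P7 cells, below the 28.4 and 22.4 RPM of WT P3 cells, and its difference was -1.15 (pairs -1.44 to -0.87). Averaged over cells before the logarithm, Dusp1 differed by -0.80 and Atf3 by -1.37. Zfp36 averaged 2.28 and 3.12 RPM in WT P7 sets and 1.87 and 2.46 RPM in WT P3 sets, a difference of 0.06 with pairs of both signs (-0.13 to 0.26).

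A gene was called where its mean difference reached 1 log2 unit with the same sign in every pair of sets. Of the 9 members measured at P7 against P3, 3 were called lower (Fos, Fosb and Dusp1) and 0 higher, with a median difference of -0.61. A level of log2(RPM + 1) cannot lie below 0. Atf3, Ier2 and Jund had WT P3 levels of 0.92, 0.97 and 0.75, so with all sets kept they could not be called lower. Mean RPM in WT P7 cells was 0.149 of that in WT P3 cells for the uncalled Atf3 and 0.572 for the called Dusp1. The same floor holds for every gene measured. Over all 9659 genes measured, 2.73% were called lower and 5.6% higher, and the median difference was 0.10. As the list was drawn up with the Fos and Fosb values known, nothing is read from that contrast of shares. With a pseudocount of 10 Fos alone was called, and at a mean level of at least 2 Fos and Dusp1 were. Without WT P7 set B the 3 called genes were Fos, Fosb and Jun, and without WT P3 set B they were Fos, Fosb, Jun, Atf3 and Dusp1. The share of all genes called lower was 0.0828% with a pseudocount of 10 and 2.47% at a mean level of at least 2. It was 7.11% without WT P7 set B and 5.45% without WT P3 set B. Rescaling cells by median ratios turned the split over all genes round, from 541 higher and 264 lower as deposited to 132 higher and 577 lower, and added Jun to the 3 called members.

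**Figure D2:**
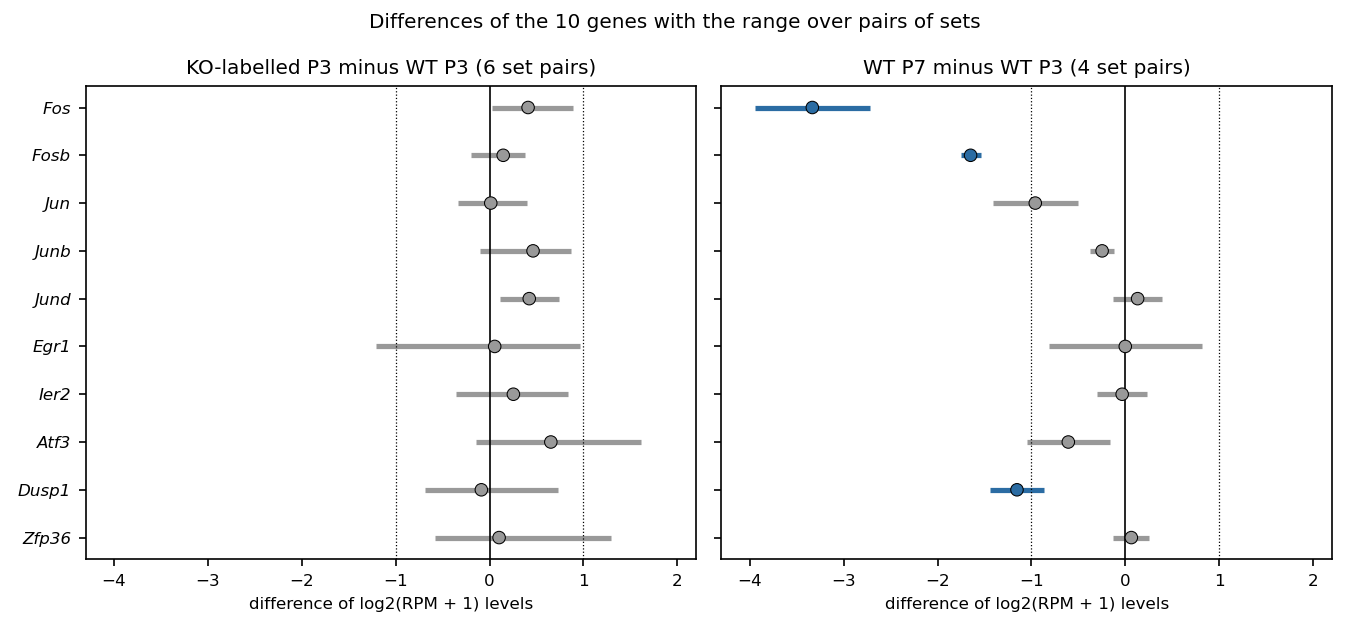
Difference of log2(RPM + 1) levels on the horizontal axis for the 10 genes, KO-labelled P3 minus WT P3 on the left and WT P7 minus WT P3 on the right. Points are the differences of the means of sets, bars span the lowest to the highest pair of sets, dotted lines stand at -1 and 1, and coloured points mark called genes. Fos, Fosb and Dusp1 lie beyond -1 at P7, and no gene is called among KO-labelled cells.

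Markers of Sertoli cells, the somatic neighbours of germ cells in the tubule, moved with Fos between the ages. The 5 markers summed to 0 and 1.22 RPM in WT P7 sets A and B and to 12.2 and 32.3 RPM in WT P3 sets A and B. They exceeded 1 RPM in 9 of 53 WT P7 cells and in 41 of 71 WT P3 cells. With the 88 cells above that level left out of the whole data set, an alternative added after the data were seen, Fos differed by -3.39 and Fosb by -1.47. Dusp1 then differed by -0.92, short of a call, and Jun and Atf3 by -1.31 and -1.06. Across all cells, with set means removed, Fos had a Pearson correlation of 0.06 with the mean level of the 3 measured Sertoli markers. Values were higher for Junb (0.24), Jun (0.23), Ier2 (0.18), Fosb (0.13), Egr1 (0.12) and Zfp36 (0.08). They were lower for Jund (0.04), Atf3 (0.01) and Dusp1 (-0.04), and the mean of the members had 0.18. What part Sertoli RNA had in the differences of these genes was not tested. In the cells kept, Fos averaged 2.36 and 5.45 RPM in sets A and B of the 44 WT P7 cells and 43.3 and 27 RPM in sets A and B of the 30 WT P3 cells. WT P7 sets A and B kept 12 and 32 cells, and WT P3 sets A and B kept 5 and 25. Sets weigh equally, so the 5 cells of WT P3 set A count as much as the 25 of set B in each of these differences. Summed markers of Leydig, endothelial, erythroid, leukocyte and stromal or myoid cells averaged no more than 15.8 RPM in any set. Markers of differentiating spermatogonia summed to 55.5 and 92.4 RPM in WT P7 sets A and B and to 40.6 and 34.3 RPM in WT P3 sets A and B. The 7 markers of spermatogonial stem cells, Id4 among them, also summed higher at P7. They gave 139 and 114 RPM in WT P7 sets A and B and 102 and 84.1 RPM in WT P3 sets A and B. Their median difference was 0.08, with 4 above 0 and 3 below. The part of either list in the Fos difference was not tested.

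Between KO-labelled and WT P3 cells no member was called. Fos ranged from 0.131 to 196 RPM in KO-labelled cells with a median of 39.2 RPM, beside the 28.3 RPM median of WT P3 cells. Set means were 40.03, 40.7 and 60.0 RPM in KO-labelled sets A, B and C and 31.3 and 36.7 RPM in WT P3 sets A and B. All 6 pairs of sets put Fos higher in KO-labelled cells, by 0.41 (pairs 0.03 to 0.89). That value was 0.08 after thinning, 0.16 when scaled to reads on genes and 0.24 after rescaling by median ratios. Jund was likewise higher in all 6 pairs, by 0.42 (0.11 to 0.74), with set means of 1.85, 1.42 and 1.70 RPM in KO-labelled cells and 0.586 and 1.15 RPM in WT P3 cells, and by 0.19 without WT P3 set A. Of all 10200 genes measured, 1691 were higher in all 6 pairs. The remaining 8 members had pairs of both signs, with differences from -0.09 for Dusp1 to 0.65 for Atf3. The median over the 10 members was 0.20, beside 0.12 over all genes measured, of which 0.882% were called higher and 0.451% lower. After rescaling by median ratios the all-gene calls were 48 higher and 89 lower, in place of 90 higher and 46 lower, and the median over the members was 0.08.

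Within the KO-labelled cells single sets stood apart for several members. Zfp36 averaged 7.30 RPM in set B, against 1.95 and 1.40 RPM in sets A and C. Atf3 averaged 8.35 RPM in set A, with 4.51 and 3.74 RPM in sets B and C, and 5.79 and 1.26 RPM in WT P3 sets A and B. Egr1 averaged 57.7 RPM in KO-labelled set A, below the 109 and 98.9 RPM of sets B and C. Junb averaged 2.33 and 2.74 RPM in sets A and B and 0.553 RPM in set C. KO-labelled set A also held the most Sertoli marker RNA, with a summed mean of 127 RPM, against 2.32 and 3.92 RPM in sets B and C. Without cells above 1 RPM of these markers, Atf3 differed by -0.03 between KO-labelled and WT P3 cells. That left 6, 4 and 21 cells in KO-labelled sets A, B and C and 5 and 25 cells in WT P3 sets A and B. Each set weighs equally, so the value rests on few cells. Across all cells, with set means removed, Atf3 had an r of 0.01 with the mean of the Sertoli markers. The part of Sertoli RNA in the Atf3 difference was not tested.

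Levels can be set side by side between genes only per length, here as RPM per kilobase of exon (GENCODE vM21). In WT P3 cells Egr1 and Fos stood highest, at 16.7 and 16.1 RPM per kilobase, and their sets overlapped. Dusp1 followed at 10.7 RPM per kilobase, below both, and the other 7 genes lay between 0.492 (Junb) and 1.64 (Atf3). In WT P7 cells Egr1 stood alone at 16.8 RPM per kilobase, Dusp1 came next at 6.13 and Fos after it at 1.77, with no overlap of sets between neighbours in that order. In KO-labelled cells Fos and Egr1 had 22.3 and 19.8 RPM per kilobase with overlapping sets.

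The genes outside the 10 came from lists of immediate early, AP-1 and stress genes, chosen with earlier results of these data known. Over all 9659 genes measured at P7 against P3, 5.6% were called higher and 2.73% lower. Rescaling by median ratios took the higher calls over all genes from 541 to 132, and the calls of these lists were not repeated after it. Among 13 other immediate early transcription factors measured at P7, 2 were called higher and 0 lower (median -0.25). They were Irf1, an interferon regulatory factor, at 37.4 RPM in WT P7 cells and 11.8 RPM in WT P3 cells (1.58, pairs 1.36 to 1.8), and Per1, a clock gene, at 6.83 RPM in WT P7 and 2.00 RPM in WT P3 cells (1.06, pairs 0.87 to 1.25). The lowest of that list were Bhlhe40 (-0.89) and Klf4 (-0.65), neither of them called. Among 23 other effectors and feedback regulators, 3 were called lower and 0 higher (median -0.09). Sgk1, a kinase related to AKT, had 9.45 RPM in WT P7 cells and 32.7 RPM in WT P3 cells (-2.47, pairs -3.49 to -1.46). Spry4, a Sprouty inhibitor of receptor tyrosine kinase signalling, had 7.64 RPM in WT P7 and 14.2 RPM in WT P3 cells (-1.40, pairs -2.26 to -0.53). Phlda1, the last of the 3, had 0.822 RPM in WT P7 and 3.55 RPM in WT P3 cells (-1.07, pairs -1.38 to -0.76). The highest of the list, Zfp36l1 and Btg1, differed by 0.64 and 0.43.

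At P7, 0 of 11 AP-1 and CREB relatives were called, at a median of 0.19, with Mafk at 0.70, Creb1 at 0.65, Maff at -0.43 and Atf1 at -0.63. Creb1 had 17.8 RPM in WT P7 cells and 8.73 RPM in WT P3 cells. Of 18 upstream kinases and factors, 2 were called higher and 0 lower, at a median of -0.03, where 5.6% of all genes measured were called higher and 2.73% lower. They were Map2k2, which encodes MEK2, at 11 RPM in WT P7 and 3.00 RPM in WT P3 cells (1.16, pairs 0.65 to 1.66), and Mkl2, an SRF coactivator, at 31.5 RPM in WT P7 and 14.8 RPM in WT P3 cells (1.16, pairs 1.01 to 1.31). Mapk14, which encodes p38, and Mkl1 were the lowest, at -0.57 and -0.42, with pairs of both signs. The 16 measured heat shock and dissociation stress genes had a median of 0.37, with Hspa5, a chaperone of the endoplasmic reticulum, called higher (1.31, pairs 1.18 to 1.44) and Hsph1, a partner of HSP70, called lower (-1.19, pairs -1.75 to -0.63). Hmox1, the haem oxygenase gene, had 24.8 RPM in WT P7 cells and 43.9 RPM in WT P3 cells, a difference of -0.97.

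**Figure D3:**
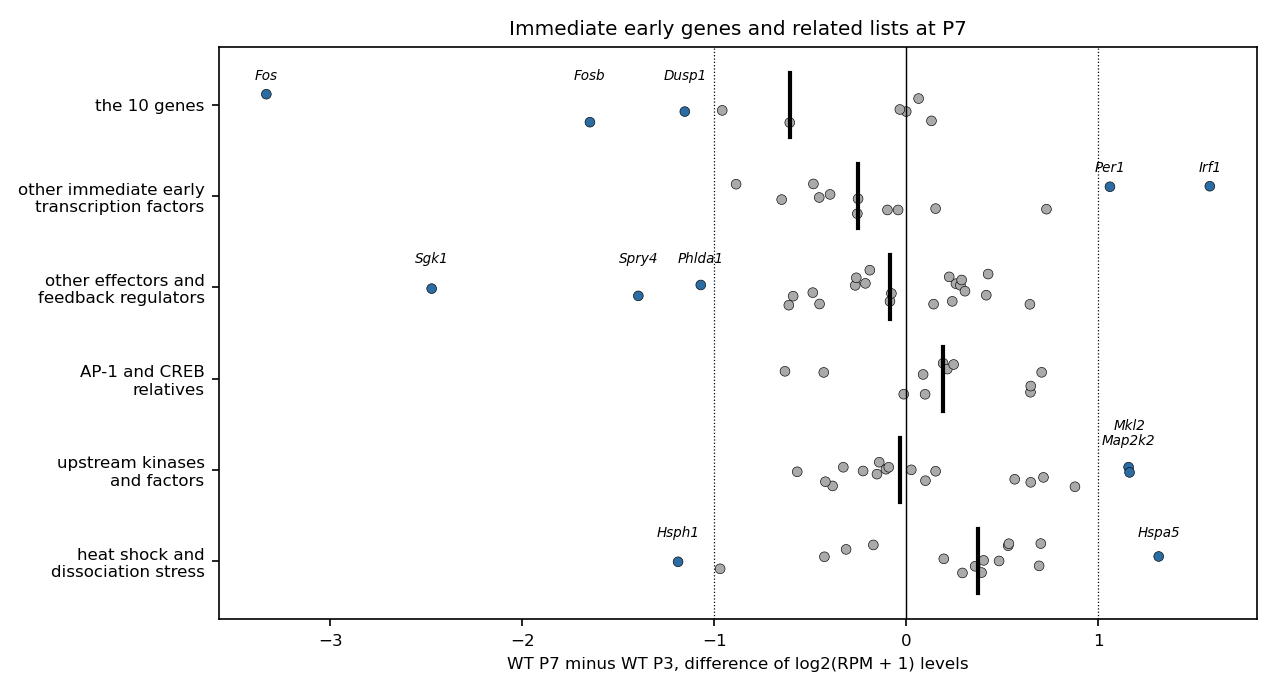
WT P7 minus WT P3 difference of log2(RPM + 1) levels on the horizontal axis, for the 9 measured members of the 10 genes and for the measured genes of 5 related lists. Each point is 1 gene, black bars are list medians, dotted lines stand at -1 and 1, blue points with names are called genes and vertical scatter has no meaning. Fos lies lowest at -3.33, followed by Sgk1 at -2.47, and no list has all of its genes on the same side of 0.

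In KO-labelled against WT P3 cells the same lists held 3 called genes. Bhlhe40, a repressor of the clock family, averaged 10.2 RPM in KO-labelled and 3.09 RPM in WT P3 cells (1.04, pairs 0.48 to 2.06). Spry2, a Sprouty gene, averaged 5.39 RPM in KO-labelled and 1.07 RPM in WT P3 cells (1.14, pairs 0.27 to 2.29). Map2k1, which encodes MEK1, averaged 8.26 RPM in KO-labelled and 13.3 RPM in WT P3 cells (-1.30, pairs -1.8 to -0.89). These were 1 of 14 transcription factors, 1 of 24 effectors and 1 of 18 upstream genes measured, and 0 of 11 AP-1 and CREB relatives and 0 of 16 heat shock genes were called. Over all 10200 genes measured in this comparison, 0.882% were called higher and 0.451% lower. List medians were 0.22 for the transcription factors, -0.09 for the effectors, 0.15 for the upstream genes, 0.23 for the relatives and 0.22 for the heat shock genes. Dusp6, another MAP kinase phosphatase, had the lowest value of the effectors at -0.96, with pairs from -2.49 to 0.63.

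Coexpression was measured as the Pearson correlation of log2(RPM + 1) across all cells of the 3 groups after removing each set's mean, and it describes cells that share sets and vary in depth. Over the 45 pairs of members the median r was 0.16, from -0.09 for Atf3 with Zfp36 to 0.48 for Fos with Fosb, and 42 pairs were positive. Over all pairs of the 9989 genes at or above a level of 0.5 the median was 0.03 and the 95th percentile 0.16, which 22 of the 45 pairs exceeded. Most of these values are weak, and many members have 0 reads in a large share of cells. Fos with Dusp1 had an r of 0.32, Junb with Egr1 0.29 and Fos with Egr1 0.28. Fos tracked the mean of the other 9 members best (0.50), followed by Fosb (0.45) and Jun (0.38), and Atf3 least (0.19). The mean of the members had an r of 0.06 with log2 reads on genes, 0.19 with the number of genes above 1 RPM and -0.09 with the share of spike-in reads.

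The pairs were not alike in all sets. Fos with Fosb had an r of 0.67 in the 36 cells of KO-labelled set C, 0.46 in the 21 cells of KO-labelled set A, 0.08 in the 41 cells of WT P7 set B and 0.64 in the 55 cells of WT P3 set B. Fosb exceeded 1 RPM in only 2 cells of WT P7 set B, so its correlations there rest on those cells. Fos with Dusp1 had an r of 0.54 in KO-labelled set C, 0.01 in WT P7 set B and 0.43 in WT P3 set B. Egr1 with Zfp36 had 0.39, 0.13 and 0.49 in the same sets. The median over the 45 pairs was 0.22 in KO-labelled set C, 0.12 in KO-labelled set A, 0.09 in WT P7 set B and 0.26 in WT P3 set B. The difference between sets was not tested.

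**Figure D4:**
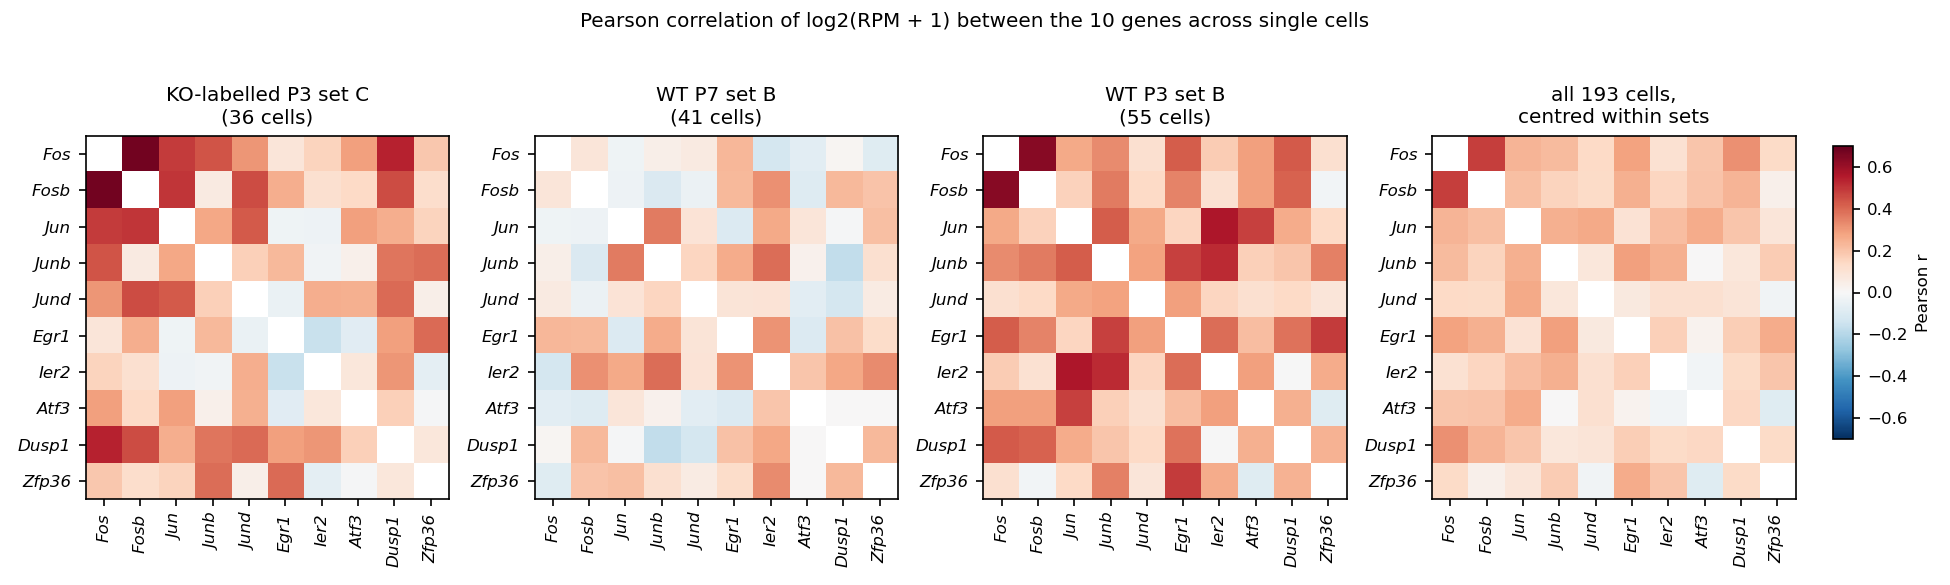
Pearson r of log2(RPM + 1) between the 10 genes across cells, as a colour from blue (-0.7) to red (0.7), within KO-labelled P3 set C (36 cells), WT P7 set B (41 cells) and WT P3 set B (55 cells), and over all cells after removing set means. White diagonals hold no value. Fos with Fosb is the deepest red in KO-labelled set C (0.67) and WT P3 set B (0.64) and pale in WT P7 set B (0.08).

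Counted cell by cell, KO-labelled cells had a median of 7 of the 10 genes above 1 RPM, WT P7 cells 4 and WT P3 cells 6. Fos, Fosb and Jun exceeded 1 RPM together in 37 of 69 KO-labelled cells, in 1 of 53 WT P7 cells and in 31 of 71 WT P3 cells. Fos and Fosb were found together in 47 KO-labelled, 2 WT P7 and 50 WT P3 cells, and Fosb without Fos in 1, 0 and 2 cells of these groups. Fos and Dusp1 were found together in 56 KO-labelled, 15 WT P7 and 58 WT P3 cells, and Dusp1 without Fos in 5, 18 and 5 cells. At least 7 of the genes were found in 35 KO-labelled, 3 WT P7 and 22 WT P3 cells. These counts are not matched for depth, and they change with the cut. Ier2, for example, exceeded 1 RPM in 55.1% of KO-labelled and 33.8% of WT P3 cells, and 5 RPM in 10.1% and 5.63%. After thinning, 52.2% of KO-labelled and 51.5% of WT P3 cells had at least 1 Ier2 read. Thinning also left out 5 WT P3 cells and put 1 read in place of 1 RPM, so this is not a comparison of depth alone.

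**Figure D5:**
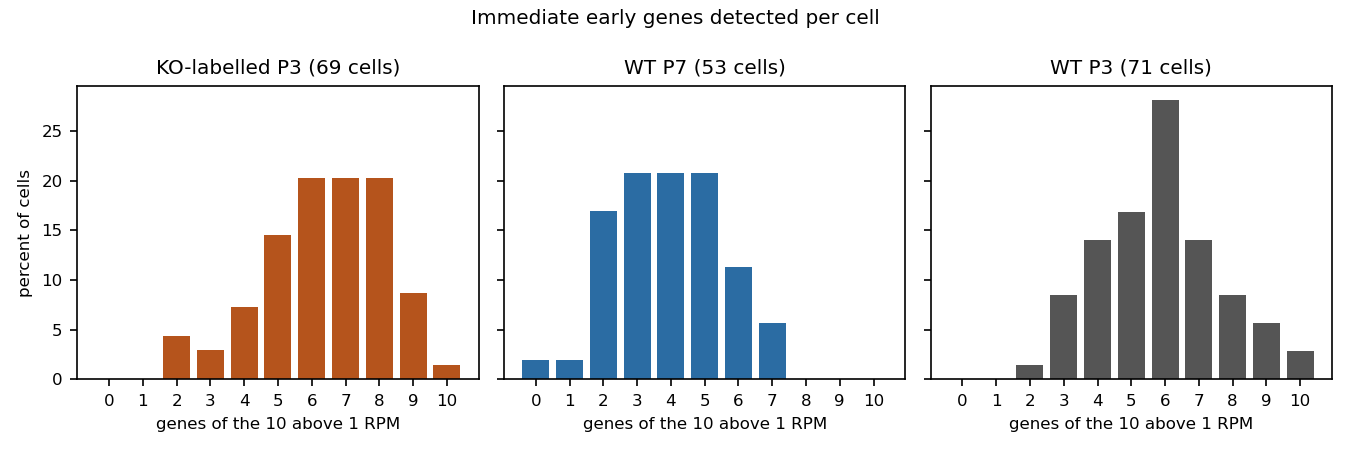
Percent of cells (vertical axis) by how many of the 10 genes exceeded 1 RPM (horizontal axis), for 69 KO-labelled P3, 53 WT P7 and 71 WT P3 cells. WT P7 cells reach at most 7 genes with a median of 4, while the P3 groups reach 10 with medians of 7 and 6.

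Of 4729 named genes at or above a level of 2, those whose level tracked the mean of the members most closely included Egr2, Prpf18, Hsph1, Myadm, Tmed10, Actb, Ywhaz, Malat1, Myl12a, Wbp5 and Arhgap26. Their correlations ran from 0.29 for Arhgap26 to 0.35 for Egr2, where the median over the 4729 genes was 0.04 and the 95th percentile 0.18. Egr2, a zinc finger relative of Egr1, had 23.7 RPM in WT P7 cells and 22.5 RPM in WT P3 cells. Its r with the mean of the members was 0.54 within WT P7 set B, 0.29 within WT P3 set B, 0.52 within KO-labelled set A and 0.16 within KO-labelled set C. The mean level of the other immediate early transcription factors had an r of 0.43 with that of the members, the other effectors and feedback regulators 0.51, the heat shock and dissociation stress genes 0.39, the S phase genes 0.23 and the G2 and mitosis genes 0.01. Among somatic markers, the myoid or stromal genes had an r of 0.24 with the mean of the members, the Sertoli genes 0.18 and the endothelial genes 0.05. Id4 had an r of 0.05 and Rhox10 of -0.06 with the mean of the members. Id4 itself averaged 3.20, 6.19 and 7.25 RPM in KO-labelled sets A, B and C, 4.71 and 10.5 RPM in WT P7 sets A and B and 15.6 and 13.6 RPM in WT P3 sets A and B.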

How the data were processed

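The deposited table gives 1 value per gene and cell. Its name calls the values TPM, but the deposited values are RPM: in each cell they are whole multiples of 1 step shared by all genes, with no length term (99.9964% of values within 0.001 RPM, at least 99.9389% in any cell). The steps gave totals of 251530 to 10663505 reads per cell, of which the listed rows hold 8.126% to 23.011%. Per the submitters' processing notes, mm10, HTSeq 0.6.1 and STAR 2.3.0 were used. The labels' protocols describe Fluidigm C1 capture, SMARTer cDNA, ERCC spike-ins and Nextera XT libraries.

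The 84 ERCC rows and Rn45s were kept out of gene comparisons. A level is the mean over sets of the set mean of log2(RPM + 1), with a pseudocount of 1, which understates changes of low genes. A gene with a mean level of at least 0.5 counted as measured. No columns were identical, and no doublet caller was run. Each group is 1 sample, so no test or count model was run on the recovered reads. Thinning drew 100000 reads on genes per cell. Shares above 1 RPM have exact 95% intervals. The 10 genes and the lists were chosen with earlier results of these data known. From each list up to 2 highest and 2 lowest measured genes per comparison were named, besides called genes, the 12 genes most correlated with the members' mean, Id4 and Rhox10; 1 gene picked by this rule is not reported here. Creb1 and Srf stand in 2 of the lists. The calculations, made with pandas 2.3.3, numpy 2.4.6 and scipy 1.17.1, were tested on simulated data.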

Additional observations from a re-analysis of the deposited data

How the results depend on the processing

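With 1 sample per group no result has a test, so settings are compared by value. The median over the 10 members between WT P7 and WT P3 was -0.43, with a pseudocount of 10 it was -0.13, with 0.1 it was -0.98, and leaving out 1 set gave -0.65 to -0.31. The count of members called lower at P7 was 3 as reported, 1 (Fos) with a pseudocount of 10 and 5 with a pseudocount of 0.1, and leaving out 1 set gave 3 to 5. Fos was called lower under all of these. The share of all genes called lower changed as well. It was 2.73% as reported, 0.0828% with a pseudocount of 10 and 13.7% with 0.1, and leaving out 1 set gave 1.91% to 7.11%. No member was called higher in KO-labelled P3 cells as reported, and 1 (Atf3) was with a pseudocount of 0.1 and without WT P3 set A, so that leaving out 1 set gave 0 to 1. The share of all genes called higher there was 0.882% as reported, 4.75% with a pseudocount of 0.1 and 1.64% without WT P3 set A. Fos was lower at P7 in all 13 alternatives, from -5.30 to -1.46, and so were Fosb, Jun, Junb, Atf3 and Dusp1. Egr1 ran from -0.50 to 0.46 and Zfp36 from -0.19 to 0.25, changing sign among the alternatives. Thinning each cell gave Fos in KO-labelled minus WT P3 cells 0.08 in place of 0.41. Rescaling by median ratios moved the median of all genes by -0.25 at P7 and by -0.10 for KO-labelled cells. The median correlation of the members, 0.16, stayed within the spread between sets under each alternative run. Of 3 single pairs followed, 2 moved by more than that spread. Fos with Fosb, 0.48 as reported, was 0.40 after thinning and 0.67 with set means kept in. Fos with Dusp1, 0.32 as reported, was 0.40 without WT P7 set B and 0.42 with set means kept in. Fos with Egr1 did not move by that much. Genes near 1 RPM, such as Junb, Jund and Ier2, rest on few reads per cell. No paired analysis was possible because the numbers in the titles only name cells and no test was run.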
